A study of Mus musculus with 8 samples.

Results

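The matrix-degrading metalloproteinases and their inhibitors were followed in hearts of mice with a permanent coronary ligation and of mice with a sham operation. Members were all genes on the array whose platform annotation gave a single symbol of the forms Mmp, Timp, Adam or Adamts with a number, including the Adamtsl genes. There were 58 such genes, on 70 spots, among 13661 genes with a single symbol on the array. They comprised 18 matrix metalloproteinases (MMPs), the 4 tissue inhibitors of metalloproteinases (TIMPs), 25 ADAM genes and 11 ADAMTS or ADAMTS-like genes. RNA came from whole hearts, and the mice were C57Bl/6 at 8 to 10 weeks of age. In 4 infarcted mice the descending left coronary branch was permanently ligated, and in 4 sham control mice the suture was placed but never tied. Every heart had a spotted array of 70-base oligonucleotides to itself, with a reference pool of RNA from adult mouse tissues, heart and testis among them, in the other dye. How long after surgery the hearts were taken is not stated in the labels. Whole hearts were taken, so infarct, border and remote muscle were not separated, and fewer cells of a type cannot be told apart from less RNA per cell.

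MMPs are zinc-dependent proteases that are made as inactive precursors and, once activated, cut collagens and other proteins of the extracellular matrix. TIMPs bind the active site of these enzymes and block them. ADAMs are membrane-anchored relatives that release growth factors, cytokines and receptors from the cell surface, and many of them are made only in the testis, where they act on sperm. ADAMTS enzymes are secreted and cut proteoglycans and procollagens, while ADAMTS-like proteins share their ancillary domains and lack the protease. In an infarcted heart, these enzymes are known for clearing and rebuilding the matrix as dead muscle is replaced by scar.

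The deposited numbers were log2 signals in which every block of 700 spots on every array had a median of 0. A level of 0 is therefore the median spot of that block, so levels of different genes are not set against each other here. For the 9 members with several spots, a gene's level on an array is the mean of those spots that had a value there, which can differ between arrays. The numbers became whole scanner signals, from 42 to 65466, once each block was multiplied by a constant, and they hold a single channel. Which channel this is stays unknown. The heart channel is assumed, and every level given here for sham or infarcted hearts rests on that. Of 33600 spots, a sham array had values for between 19704 and 24819, and an infarcted array for between 21916 and 23655. The 99th percentile of the log2 values was 5.65 to 6.31 on sham arrays and 5.05 to 5.24 on infarcted arrays, without overlap. Its part in the changes of bright genes was not tested. Heart-muscle genes were bright but often without a value: Tnnt2, a troponin subunit, stood at 6.68 ± 0.26 (SD) where 2 sham arrays had a value and 6.13 ± 0.31 where 3 infarcted arrays had one, and only 1 of 10 heart-muscle markers had a value on all 8 arrays. Tnnt2 had too few values for a test. Of the 4 heart-muscle markers that could be tested, 2 had a change above 0 and 2 below, and 0 passed. Genes known from other tissues of the reference pool also gave strong signals: 10 germ-cell genes of the testis averaged between 1.63 and 3.11 per sham array and between 1.27 and 1.64 per infarcted array. Genes of liver, stomach and lung epithelium were looked at only after these had been seen. All tested genes of these lists, 6 of liver, 8 of stomach and 4 of lung epithelium, had changes below 0 (medians of -1.03, -0.55 and -0.85), and 0 passed. The part of reference RNA in these readings and in those of the proteases was not tested.

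Many of the members gave few values or none. Of the 58 members, 34 (58.6%) met the minimum of 3 values per group and could be tested, and 10 had no value on any array. Among all 13661 genes with a single symbol, 73.4% could be tested and 1459, or 10.7%, had no value. Values were present in 64.2% of the 232 possible sham readings of members and in 67.2% of the infarcted ones, against 78.3% and 78.4% for all genes with a single symbol. All 4 TIMPs could be tested, but only 9 of 18 MMPs, 15 of 25 ADAMs and 6 of 11 ADAMTS genes. Members without any value were Mmp7, Mmp10, Mmp20, Mmp21, Adam7, Adam21, Adam22, Adam28, Adam29 and Adamts16. A missing value shows neither absence nor a low level, since bright spots such as that of Tnnt2 also lacked values. The main shedding enzymes ADAM10 and ADAM17 had no spot under a single symbol in the annotation used here.

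**Figure D1:**
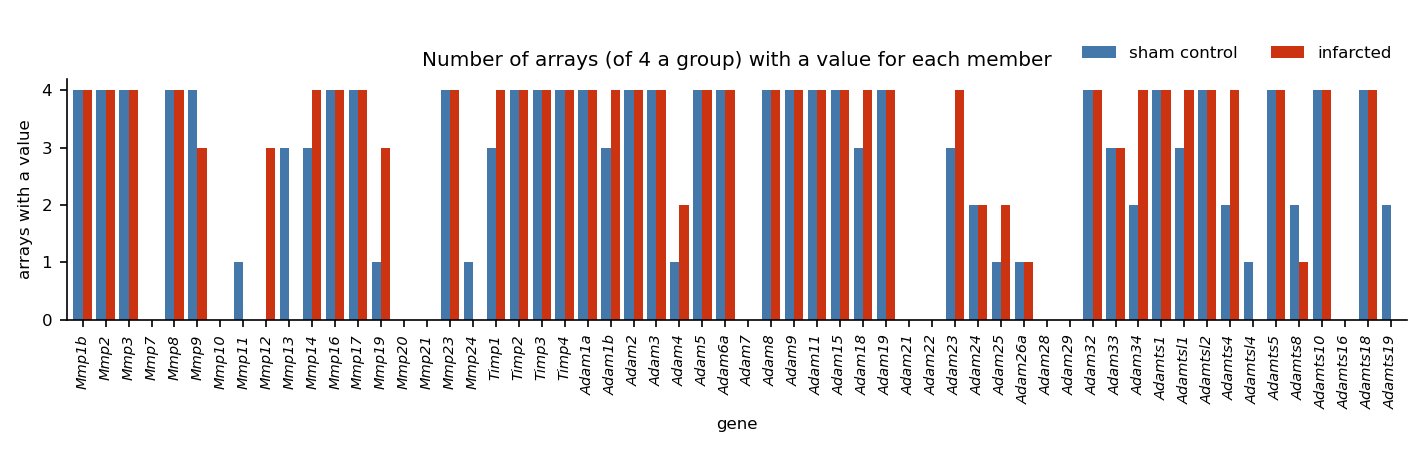
Bars give the number of arrays (of 4 in each group) with a value for each of the 58 members, sham control in blue and infarcted in red, ordered by family and number. Mmp12 has bars only for infarcted arrays (3 of 4) and Mmp13, pooled over its 3 spots, only for sham arrays (3 of 4), and 10 members have none.

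No tested member changed when p-values were adjusted over all features (limma, Benjamini-Hochberg adjusted p under 0.05): the count was 0 of 34, where 99 of 18044 features, or 0.549%, passed, 0.0554% upward and 0.493% downward. At an unadjusted p under 0.05 there were 4 members, 11.8% of those tested, beside 12.3% of all features. These were Mmp3, Adamtsl1 and Mmp23, which stood higher in infarcted hearts (3.46% of all features), and Adam3, which stood lower (8.82% of all features). The groups did not overlap for 4 members, again 11.8%, beside 8.89% of all features. In Mmp3 and Adamtsl1 all infarcted values lay above all sham values (2.62% of all features), and in Mmp14 and Adam1b all lay below (6.27% of all features). The median log2 change of the tested members was 0.04, with 18 above 0, and over all features the median was -0.08, with 42.5% above 0.

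**Figure D2:**
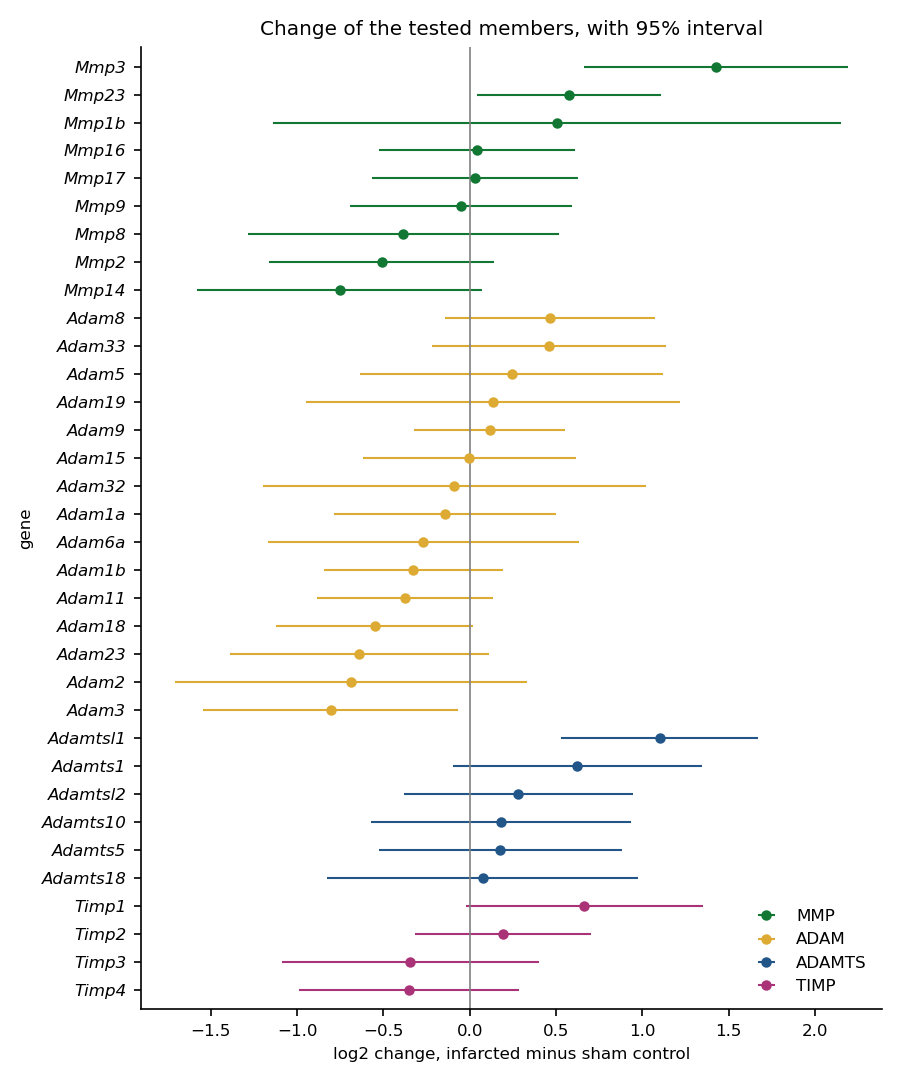
Points give the log2 change, infarcted minus sham control, of the 34 tested members, with 95% intervals of the limma fit as bars, coloured by family. Intervals of Mmp3, Mmp23, Adamtsl1 and Adam3 leave out 0, and none of these genes passed after adjustment over all features.

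Mmp3, stromelysin-1, which cuts proteoglycans and fibronectin and activates other MMPs, had the largest change of the 34 tested members. Its level, averaged over its 2 spots, was 0.22, -0.30, -1.16 and -0.33 in sham replicates 1 to 4 and 0.85, 0.48, 1.56 and 1.26 in infarcted replicates 1 to 4. Every infarcted heart was above every sham heart. The means were -0.39 ± 0.57 and 1.04 ± 0.47 (SD, n = 4 each), a log2 change of 1.43 ± 0.34 (SE), or 2.69-fold, with a 95% interval from 0.67 to 2.19 (limma adjusted p = 0.11).

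The Mmp3 average combines 2 spots with different values, whose changes did not differ past a threshold of 0.05. The spot numbered 2 here had scanner signals of 283, 109, 107 and 132 for sham hearts and 667, 483, 2080 and 911 for infarcted hearts, so the groups were apart. On the block-scaled log2 scale it went from -1.70 ± 0.31 to 0.72 ± 0.86 (SD, n = 4 each), a change of 2.41 ± 0.40 (SE). Tested spot by spot over 20561 spots, it passed (limma adjusted p = 0.0336), the only one of 38 member spots to do so, where 0.764% of all spots passed and 0.0632% did so upward. Spot 1 had signals of 2056, 947, 209 and 1086 on sham arrays and 1348, 947, 1272 and 907 in infarcted hearts. These overlapped, with sham replicate 3 far below the rest, and the change was 0.45 ± 0.43 (adjusted p = 0.733). It was -0.03 without sham replicate 3 and 0.70 without sham replicate 1. Both spots carry the same RefSeq transcript in the annotation, and their oligonucleotide sequences were not used here. The change of spot 2 exceeded that of spot 1 by 1.96, a comparison chosen after the values were seen (exact two-sided permutation test over the 8 arrays, p = 0.0571, smallest possible 0.0286). With quantile normalization spot 2 stood at 2.47 and no longer passed (adjusted p = 0.0664). With replicate number as a block, although the numbers pair no hearts, its adjusted p was 0.128. Spot 2 kept its call without sham replicate 4 (adjusted p = 0.0212), where 741 of all 20561 spots passed. It lost the call without any other single array, with changes between 2.08 and 2.72 and adjusted p from 0.0512 to 0.106. In those settings 3 to 111 of all spots passed, against 157 with all arrays.

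**Figure D3:**
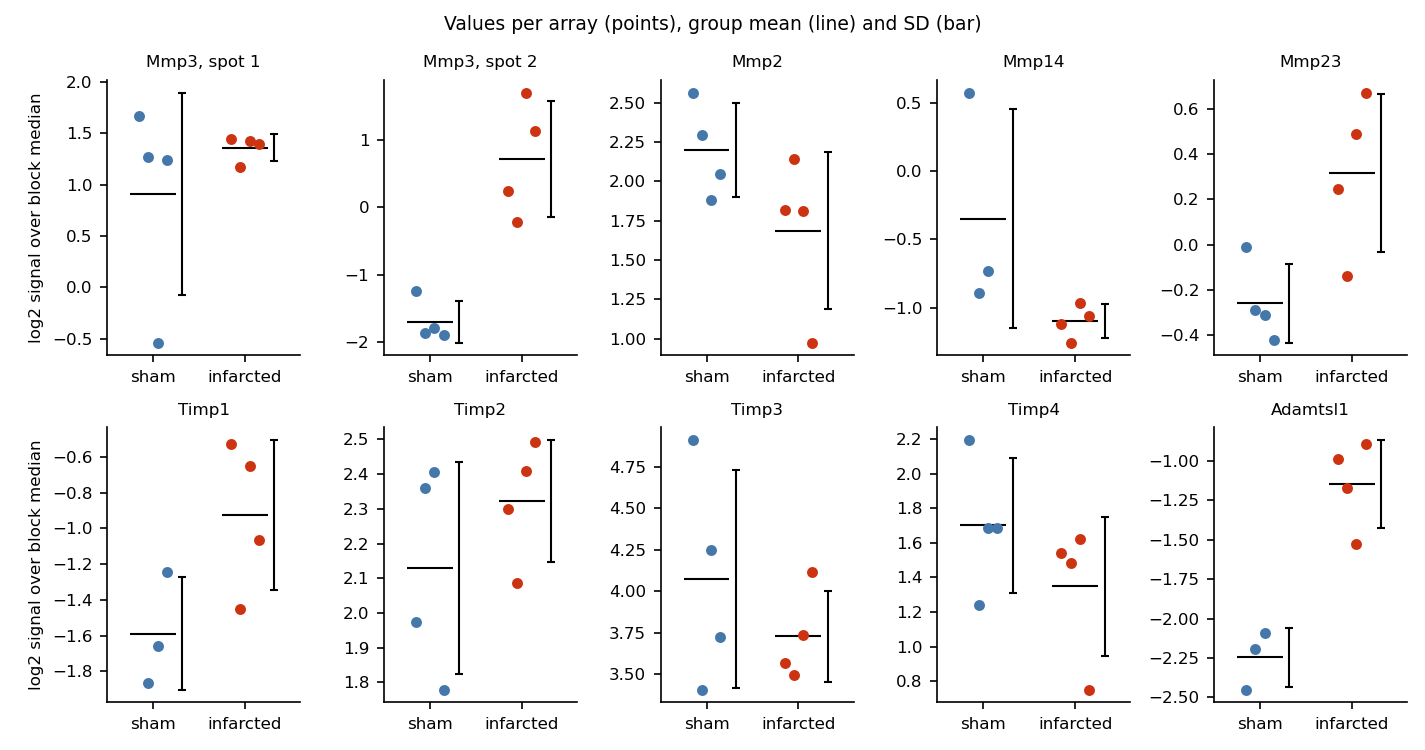
Each panel plots the log2 signal over the block median on every array (points; blue sham control, red infarcted), the group mean (line) and the SD (bar). The panels of Mmp3 spot 2 and Adamtsl1 show groups that do not overlap upward, Mmp14 downward, and the 4 TIMP panels show overlapping groups; the vertical scales differ between panels.

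Mmp3 lies in a run of 10 Mmp genes on mouse chromosome 9, in the order Mmp13, Mmp12, Mmp1b, Mmp3, Mmp1a, Mmp10, Mmp8, Mmp27, Mmp20 and Mmp7, with no other protein-coding gene between them in RefSeq (GRCm38.p6). Promoters of this run are known for a site of AP-1, the Fos and Jun transcription factor that responds to cytokines and stress. RefSeq promoter windows of 300 bases, 250 before to 50 after the start, were found for 33 of the 58 members. The letters TGANTCA, searched for after the values of Mmp3 had been seen, which read the same on both strands, stood in 8 of the 12 windows of these 10 genes, or 66.7%, and in 7.81% of all 32851 windows. Mmp8 and Mmp27 were the genes of the run without it. In 28 windows of members outside the run the share was 14.3%, and it was 0 in those of the 4 TIMPs and in the 6 windows of MMPs outside the run. The 110 bases before the start are shown for 4 genes of the run with values on the arrays, 5′ to 3′ on the strand of the gene, with TGANTCA in capitals, to set Mmp3 beside its neighbours; Mmp8 is shown as a neighbour without these letters.
Mmp3 (GRCm38.p6 chr9:7445712-7445821, plus strand): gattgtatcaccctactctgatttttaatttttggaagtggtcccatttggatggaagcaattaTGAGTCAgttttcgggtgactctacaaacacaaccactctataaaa
Mmp13 (GRCm38.p6 chr9:7272404-7272513, plus strand): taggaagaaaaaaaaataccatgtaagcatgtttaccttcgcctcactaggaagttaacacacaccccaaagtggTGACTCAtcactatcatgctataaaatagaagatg
Mmp1b (GRCm38.p6 chr9:7388027-7388136, minus strand): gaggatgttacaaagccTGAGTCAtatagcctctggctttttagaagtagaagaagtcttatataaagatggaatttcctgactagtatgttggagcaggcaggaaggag
Mmp8 (GRCm38.p6 chr9:7558319-7558428, plus strand): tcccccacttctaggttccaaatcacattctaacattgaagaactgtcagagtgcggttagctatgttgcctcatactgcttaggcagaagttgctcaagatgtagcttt
The match begins 46 bases before the start in Mmp3, 35 in Mmp13 and 93 in Mmp1b. A match of letters is a description of the window and no evidence that the site was used in these hearts.

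The neighbours of Mmp3 with enough values gave no call. Mmp8, the collagenase of neutrophils, ranged from -0.26 to 1.495 in sham and from -0.07 to 0.64 in infarcted hearts, with a change of -0.38 ± 0.40 (SE, adjusted p = 0.769). Mmp1b, a rodent relative of interstitial collagenase, was at 1.84, -1.27, -1.17 and -0.63 in sham hearts and at 0.07, -1.31, 0.85 and 1.18 in infarcted hearts. Its change was 0.51 ± 0.74 (adjusted p = 0.843), and 0.04 over its 1 spot with a value on all 8 arrays. Leaving out 1 array at a time moved it between 0.18 and 1.22, the latter without sham replicate 1. Mmp12, the elastase of macrophages, gave signals of 124, 229 and 72 on infarcted replicates 1, 2 and 4, at levels of -1.83, -1.37 and -2.63, and no value on any sham array. That pattern was rare: 20 of 13661 genes, 0.146%, had at least 3 infarcted and 0 sham values. Tmprss2, from the list of other matrix protease genes below, showed it too, with 4 infarcted values from -0.58 to 0.45. Mmp13, the main interstitial collagenase of mice, showed the opposite pattern, with levels of -2.87, -2.56 and -1.75 on sham replicates 1, 2 and 4 and none on infarcted arrays, a pattern of 0.461% of genes. It was pooled over 3 spots: the first of these values came from 1 spot, the other two from another, and the third spot had none, so no single spot showed it. All readings of Mmp12 and Mmp13 lay below the block median, and no fold is given for either gene.

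Both gelatinases, which cut denatured collagen and basement membrane, had changes below 0, and neither passed. Mmp2, made mainly by fibroblasts, had levels of 2.57, 2.30, 1.88 and 2.05 in sham hearts and 1.82, 2.14, 1.82 and 0.98 in infarcted hearts. The groups overlapped, with infarcted replicate 4 the lowest. The change was -0.51 ± 0.29 (SE, adjusted p = 0.533), with a 95% interval from -1.16 to 0.14, and it was -0.27 without that array. Mmp9, the gelatinase of neutrophils and macrophages, lay between -2.33 and -1.5 in 4 sham hearts and between -2.08 and -1.55 in 3 infarcted hearts. Its change was -0.05 ± 0.28 (adjusted p = 0.967; 95% interval -0.70 to 0.59), and the sign turned to 0.08 with loess normalization.

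Among the membrane-type enzymes, Mmp14, which activates the Mmp2 precursor at the cell surface, lay at 0.58, -0.89 and -0.73 in sham replicates 1 to 3 and at -1.12, -1.26, -0.96 and -1.06 in infarcted replicates 1 to 4. All infarcted values were below all sham values, though the nearest lay close together at -0.96 and -0.89. The change of -0.75 ± 0.36 did not pass (adjusted p = 0.459) and shrank to -0.29 without sham replicate 1. Mmp16 and Mmp17 stood at 0.05 ± 0.25 and 0.03 ± 0.27 (adjusted p = 0.967 and 0.977). Mmp23, an MMP with an unusual cysteine-rich domain, was between -0.42 and -0.01 in sham hearts and at 0.25, -0.14, 0.49 and 0.67 in infarcted hearts. Infarcted replicate 2 fell within the sham range, and the change was 0.58 ± 0.24 (adjusted p = 0.362). Among MMPs with too few values, Mmp19 had levels of -2.69, -2.71 and -2.69 on 3 infarcted arrays and -3.32 on 1 sham array, and Mmp11 and Mmp24 each had 1 sham value.

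None of the 4 inhibitors passed the test, and 2 stood above 0 and 2 below. Timp1, the inhibitor that many cells induce under inflammation, was at -1.86, -1.66 and -1.25 in sham replicates 2 to 4 and at -0.53, -1.45, -0.65 and -1.07 in infarcted replicates 1 to 4. Of the infarcted hearts, 3 were above all sham hearts and replicate 2 was not. The change was 0.66 ± 0.30 (SE), or 1.59-fold, with a 95% interval from -0.02 to 1.35 (adjusted p = 0.425). Timp2, which also takes part in the activation of the Mmp2 precursor by Mmp14, ran from 1.78 to 2.41 in sham and from 2.09 to 2.49 in infarcted hearts, a change of 0.19 ± 0.23 (adjusted p = 0.801; 95% interval -0.32 to 0.71). Timp3, which is bound to the matrix and also inhibits ADAM17, had levels of 4.91, 3.41, 4.25 and 3.73 in sham hearts and 3.57, 3.497, 3.74 and 4.11 in infarcted hearts. The infarcted values all lay within the sham range, and the change of -0.34 ± 0.33 (adjusted p = 0.743) became 0.13 with quantile and 0.16 with loess normalization. Timp4, the TIMP known for its high level in heart, had 2.20, 1.24, 1.69 and 1.69 in sham hearts and 1.54, 1.48, 1.62 and 0.75 in infarcted hearts. Its change was -0.35 ± 0.29 (adjusted p = 0.685; 95% interval -0.99 to 0.29), and -0.15 without infarcted replicate 4 or -0.19 without sham replicate 1.

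No ADAM in the group of transmembrane ADAMs with the catalytic zinc motif passed the test. All other ADAMs, named for the testis or without that motif, form the remaining group below. Adam9 had the narrowest spread, from 1.48 to 1.83 in sham and from 1.63 to 1.85 in infarcted hearts, and its change was 0.12 ± 0.20 (SE, adjusted p = 0.865; 95% interval -0.32 to 0.55). Adam15, known from endothelium, was at 2.07 in both groups, with a change of -0.00 ± 0.28 that turned to 0.15 with quantile, 0.12 with loess and 0.05 with scale normalization. Its 2 spots gave 0.05 and -0.05. Adam8, a protease of macrophages and neutrophils, lay at -2.54 to -1.79 in sham and -2.16 to -1.17 in infarcted hearts, a change of 0.46 ± 0.27 (adjusted p = 0.544). Adam19, which acts in heart valve development, and Adam33 stood at 0.14 ± 0.49 and 0.46 ± 0.29 (adjusted p = 0.942 and 0.594). Of the 5 tested ADAMs of the zinc-motif group, 4 were above 0 and 0 passed.

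The remaining ADAMs leaned the other way: 9 of 10 tested had a change below 0, with a median of -0.35, and 0 passed. Among them 8 are known from sperm, a grouping made after the values were seen. Adam3, needed for sperm to enter the oviduct, was at 2.75, 1.37, 2.56 and 2.0 in sham hearts and 1.37, 0.98, 1.32 and 1.79 in infarcted hearts. The groups overlapped through sham replicate 2, and the change was -0.81 ± 0.33 (SE, adjusted p = 0.359). Adam2, the beta subunit of fertilin, was at 1.59, -0.37, 1.203 and 1.25 in sham and 0.44, -0.30, -0.24 and 1.03 in infarcted hearts, a change of -0.69 ± 0.46 (adjusted p = 0.608). In both genes sham replicate 2 was the lowest sham array, as it was for Adam1a, Adam6a, Adam32 and the sperm genes Prm1, Prm2, Tnp1 and Ldhc. Adam18 stood at -0.55 ± 0.25 (adjusted p = 0.427), Adam6a at -0.27 ± 0.40, Adam1a at -0.14 ± 0.29 and Adam32 at -0.09 ± 0.50. Adam1b lay between -0.93 and -0.79 in 3 sham hearts and between -1.45 and -0.998 in infarcted hearts, without overlap, a change of -0.33 ± 0.23 (adjusted p = 0.633). Adam5, at 0.24 ± 0.39, had 1 spot at -0.96 and another at 1.15, and neither passed (adjusted p = 0.5 and 0.44). Outside the sperm genes, Adam23 and Adam11, known from the brain, stood at -0.64 ± 0.33 and -0.37 ± 0.23 (adjusted p = 0.49 and 0.569). Among ADAMs with too few values, Adam34 had levels of -1.202 and -1.501 on 2 sham arrays and of -2.30 to -1.66 on 4 infarcted arrays, while Adam4, Adam24, Adam25 and Adam26a had 1 or 2 values per group.

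Germ-cell genes that are not proteases stood lower on the same arrays. Of 10 testis markers, 9 had a change below 0, with a median of -1.17, and 7 had an unadjusted p under 0.05, all lower. Among all features 8.82% were lower at this threshold. Prm2, a protamine that packs sperm DNA, fell by 1.69 ± 0.26 (SE, limma adjusted p = 0.0314), from 4.15 ± 0.35 to 2.46 ± 0.33 (SD, n = 4 each), and was the only marker that passed. Ldhc, the lactate dehydrogenase of sperm, stood at -1.17 ± 0.28 (adjusted p = 0.11), and Prm1 at -1.62 ± 0.52 (adjusted p = 0.226). The reference pool held testis, per the labels. The part of testis RNA in the readings of Adam2, Adam3 and the other sperm ADAMs was not tested. Nor was the part of the lower upper end of the scale on infarcted arrays in the changes of these bright markers.

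**Figure D4:**
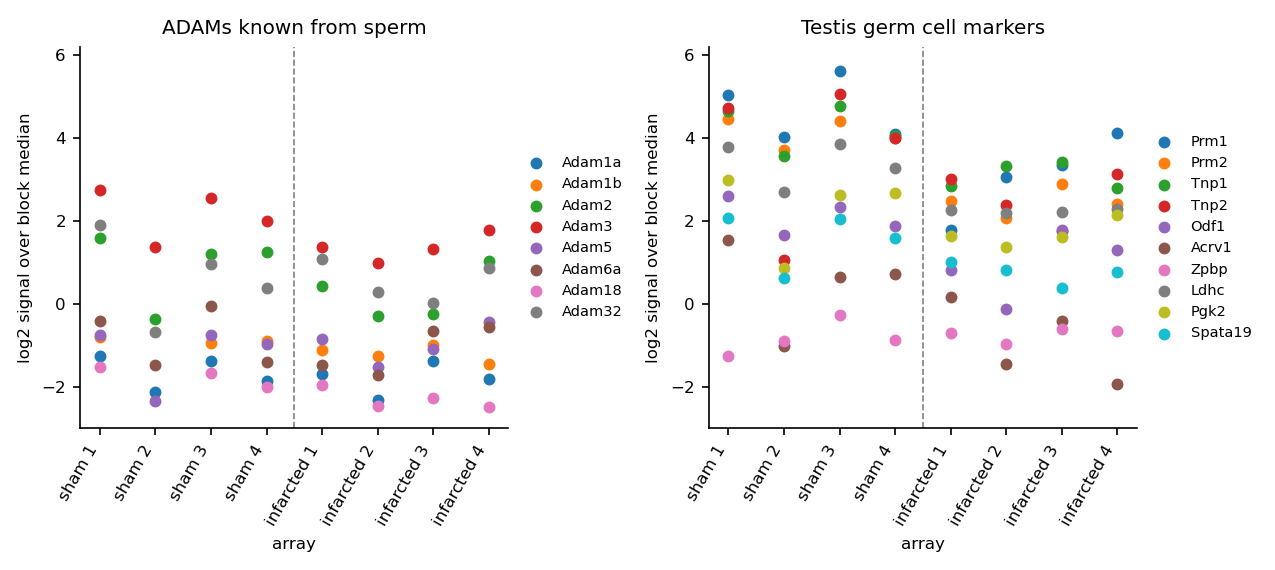
Points give the log2 signal over the block median on each of the 8 arrays for 8 ADAMs known from sperm (left) and 10 testis germ-cell markers (right), with sham control arrays left of the dashed line. Prm2, Tnp1 and Ldhc are lower on every infarcted array than on any sham array, as were 6.27% of all features, while Adam2 and Adam3 overlap between the groups.

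All 6 tested ADAMTS and ADAMTS-like genes had a change above 0, and 0 passed; Adamts18 turned to -0.51 over its spot with a value on all 8 arrays. Adamtsl1, also called punctin, was at -2.45, -2.19 and -2.09 in sham replicates 1 to 3 and at -0.99, -1.17, -1.53 and -0.89 in infarcted replicates 1 to 4. The groups were apart, with scanner signals of 125, 85 and 73 against 266, 250, 210 and 229. The means were -2.25 ± 0.19 (SD, n = 3) and -1.15 ± 0.28 (n = 4), a change of 1.10 ± 0.25 (SE), or 2.14-fold (limma adjusted p = 0.11; 95% interval 0.53 to 1.67). It rests on 1 spot that is below the block median in both groups, and it passed without sham replicate 4, which had no value for it (adjusted p = 0.0432). In that setting 28 of all features passed upward and 638 downward, against 10 and 89 with all arrays. Adamts1, an inducible enzyme that cuts versican, was at 0.33, 0.40, -0.28 and -0.68 in sham and at 0.44, 1.11, 0.67 and 0.04 in infarcted hearts. Those ranges overlapped, and the change was 0.62 ± 0.32 (adjusted p = 0.483). Adamts5, an aggrecanase that also cuts versican, varied more among infarcted hearts (-0.13 to 1.42) than among sham hearts (0.34 to 0.64), and its change was 0.18 ± 0.32 (adjusted p = 0.876). Adamtsl2, a partner of fibrillin and of a TGF-beta binding protein, was at 1.22 to 1.41 in sham and at 1.13, 1.13, 1.65 and 2.39 in infarcted hearts, a change of 0.28 ± 0.30 (adjusted p = 0.771) that was 0.01 without infarcted replicate 4. Adamts10 and Adamts18 stood at 0.18 ± 0.34 and 0.08 ± 0.40. Adamts4, the other main aggrecanase, had -1.51 and -1.89 on sham replicates 2 and 3 and -2.30 to -2.70 on the infarcted arrays, with too few sham values for the test. Adamts8 had 2 sham and 1 infarcted values, Adamts19 had 2 sham values and Adamtsl4 had 1.

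No other gene of the matrix protease system passed either. The list held 81 genes, of which 69 were on the array and 53 could be tested. Of these, 34 had a change above 0 and 19 below, with a median of 0.14, and 0 passed. Of the 53, 6 had an unadjusted p under 0.05, a share close to the 12.3% of all features. By rule, the 3 with the smallest p in each direction are named. Thbs2, thrombospondin 2, which clears Mmp2 from the cell surroundings, went from 0.05 to 0.96 without overlap, a change of 0.90 ± 0.25 (SE, limma adjusted p = 0.169). Comp, a cartilage matrix protein cut by ADAMTS enzymes, stood at 1.29 ± 0.46 and the proprotein convertase Pcsk5 at 0.72 ± 0.28 (adjusted p = 0.285 and 0.327). Lower were Klkb1, the liver's plasma kallikrein precursor, at -1.37 ± 0.33 (adjusted p = 0.11), the tetraspanin Cd151 at -0.60 ± 0.22 (adjusted p = 0.287) and App, a substrate of ADAM10, at -0.92 ± 0.36 (adjusted p = 0.34). Groups were apart upward for 2 of the 53, Thbs2 and Vcam1, beside 2.62% of all features. They were apart downward for 2, Klkb1 and Cd151, beside 6.27% of all features.

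Markers of cells that can make these enzymes differed in direction. The 9 macrophage markers with a value on all arrays averaged between 0.15 and 0.65 per sham array and between 0.88 and 1.52 per infarcted array, without overlap, and 8 of the 9 tested were above 0. The macrophage marker Fcgr1 had 3 sham values, from -1.02 to 0.35, and no infarcted value. The 10 fibroblast markers averaged 1.88 to 2.36 and 1.99 to 2.34, and 4 of 10 were above 0, among them periostin (Postn) at 1.76 (adjusted p = 0.209). Among those below 0, the collagen gene Col3a1 was at -0.61 without overlap between the groups (adjusted p = 0.293), and Col1a1 was at -1.27 with overlap (adjusted p = 0.466). The 5 neutrophil markers with all values averaged -0.23 to 0.74 and 0.47 to 1.32. All 5 were above 0, from 0.066 for Csf3r to 0.825 for S100a8. Among those with too few values, Cxcr2 had no sham value. Sham and infarcted means were -1.91 and -2.11 for Elane and -2.68 and -2.84 for Ly6g, both lower in infarcted hearts. They were -2.88 and -2.30 for Ltf and -3.05 and -2.60 for Mpo, both higher. Of 8 endothelial markers, 3 had a change above 0 and 5 below. Of 7 markers of smooth muscle and pericytes, 3 were above 0 and 4 below. All 3 tested lymphocyte markers were above 0. None of these markers passed singly (smallest limma adjusted p = 0.127, for Ms4a7 of macrophages), and their part in the readings of Mmp3, Mmp12, Timp1 and Adam8 was not tested.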

How the data were processed

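The deposited table of the series gives a log2 value per array for each of 33600 spots (8 arrays, 4 sham control and 4 infarcted), which per the labels' protocols came from spotted arrays with heart RNA in the red dye, 30 µg for each dye, and a tissue reference pool in the green dye. The authors' image software, background correction and spot filter are not stated in the labels. Which channel the values hold stays unknown: the heart channel is assumed. The tests had been fixed for a ratio and were run on this signal unchanged. Probes were named through the platform annotation supplied with the values: 18179 spots had a single symbol, 87 several and 15334 were not listed. Centring on the array median was the main setting (the medians were already 0), and spots of a gene were averaged on each array. Features with at least 3 values in each group, 18044 in all, went into limma 3.58.1 (lmFit, then eBayes; R 4.3.3), infarcted minus sham control, with Benjamini-Hochberg adjustment over all of them, called at 0.05. Intervals cover 95%. The procedure was tested on simulated data.

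The number of arrays limits the precision. Labels give separate hearts, so p-values measure the spread between hearts and arrays together; arrays of a group correlated at 0.86 to 0.955 across features. No scan date or slide batch was given. The members and gene lists were chosen with earlier results of these data known. The rule named a set of family members where present, every member past the threshold, the 4 smallest p in each direction and family, genes with discordant spots and untested members; other members named were chosen after their values were seen. Same-numbered arrays of the groups did not deviate together (correlations of 0.02, 0.31, -0.08 and -0.19), so the numbers were not used as pairs. Alternatives covered centring, quantile, loess and scale normalization, the presence filter, the treatment of spots, dim features, the variance model, a replicate block and leaving out each array.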

Additional observations from a re-analysis of the deposited data

Results flagged for a closer look

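Of 59 groups of 4 values checked among tested members, 3 held an array far from the other 3; chance flags about 1 in 20 groups. Timp4 was at 0.75 on infarcted replicate 4, where the other infarcted arrays gave 1.48 to 1.62. Adam5 was at -2.35 on sham control replicate 2, against -0.98 to -0.76 on the others. Its level there came from 1 spot only, that of sham control replicate 4 from another spot, and those of replicates 1 and 3 from the mean of both, so this gap sets different spots against each other. Mmp17 was at -0.555 on sham control replicate 1, against -1.56 to -1.44 on the others.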

How the results depend on the processing

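No member passed under 10 of the 11 alternatives that kept all arrays. Tested spot by spot, 1 member did (Mmp3) and 157 of 20561 spots passed, against 99 features. The number of changed features was 32 with quantile and 48 with scale normalization. With the replicate block it was 1, and 0 members passed. Since the numbers pair no hearts, values from this setting, also those of Mmp3 spot 2 and Mmp9, are given only as a description. Of the same-numbered arrays, only number 2 correlated best with its own number. Leaving out 1 array at a time gave 3 to 666 changed features, the highest without sham control replicate 4 and the lowest without infarcted replicate 3 (each of the 8 moved the count by over 1.5 times), and 0 to 1 changed members; the 1 was Adamtsl1, without sham control replicate 4. Signs turned for Adam15 (0.15 with quantile, 0.12 with loess and 0.049 with scale normalization), Timp3 (0.13 with quantile and 0.16 with loess), Mmp9 (0.078 with loess and 0.06 with the replicate block) and Adamts18 (-0.51 over spots complete on 8 arrays); none was called in any setting, and the cause was not tested. With 1 array left out, signs turned for Adam15 (-0.17 to 0.17), Adam19 (-0.14 to 0.55), Adam1a (-0.30 to 0.03), Adam32 (-0.53 to 0.33), Adam5 (-0.14 to 0.42), Adamts18 (-0.28 to 0.35), Adamts5 (-0.088 to 0.43), Mmp16 (-0.087 to 0.17), Mmp17 (-0.07 to 0.27) and Mmp9 (-0.22 to 0.06). Mmp3 ran from 1.17 to 1.63 over these settings and Adamtsl1 from 1.00 to 1.23. Many members gave signals below the block median or none, so small differences in them could not be read.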
